A study of Mus musculus with 8 samples.

Results

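The 8 genes described here, Cacna1a, Cacna1b, Cacna1c, Cacna1d, Cacna1e, Cacna1g, Cacna1h and Cacna1i, encode the pore-forming alpha1 subunits of the voltage-gated calcium channels of the brain. They were picked by symbol from the 56576 genes of the deposited table, and each symbol matched 1 gene. Ribosome-associated RNA was pulled down from cortical synaptosomes of mice at postnatal day 15. The 4 control libraries came from Lhx6-Cre;ErbB4+/+;Rpl22HA/HA mice and the 4 mutant libraries from Lhx6-Cre;ErbB4F/F;Rpl22HA/HA mice, so both groups carried the Cre driver and the HA-tagged ribosomal protein Rpl22, and differed in the loxP-flanked alleles of the receptor gene Erbb4. Lhx6-Cre recombines in young PV+ and SST+ interneurons born in the medial ganglionic eminence (MGE) and preoptic area, so the pulldown pools both classes, and their pre- and postsynaptic sides, in 1 sample. Libraries are named by group and replicate number, 1, 3, 4 and 5 for controls and 2, 3, 4 and 5 for mutants.

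Each alpha1 subunit is a single long protein of 4 homologous domains that together form the voltage sensors and the calcium pore, and its gene sets the current type of the channel. P/Q-type (Cacna1a) and N-type (Cacna1b) channels sit at presynaptic active zones and trigger transmitter release, with P/Q channels predominating at the terminals of PV+ basket cells. L-type channels (Cacna1c, Cacna1d) lie mainly on soma and dendrites and couple activity to gene expression, R-type channels (Cacna1e) are found on dendrites, spines and some terminals, and T-type channels (Cacna1g, Cacna1h, Cacna1i) open near rest and support burst firing. The high-voltage types work with beta and alpha2delta subunits, while T-type pores can work without them.

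The pore loop of domain III is shown because it tells the high-voltage members from the T-type members at the residue that selects calcium. Each stretch runs 5′ to 3′ on the coding strand of the member's GENCODE transcript with the longest coding sequence (mm10, GRCm38). The capitals mark the codon of the acidic selectivity residue.
Cacna1a (P/Q type), chr8:84581320-84581346, plus strand, exon 27: ttcacagtgtccacaggaGAGggctgg
Cacna1b (N type), chr2:24651086-24651112, minus strand, exon 28: ttcacagtgtccacgggaGAGgggtgg
Cacna1c (L type), chr6:118656118-118656144, minus strand, exon 27: ttcaccgtctccaccttcGAAgggtgg
Cacna1d (L type), chr14:30100702-30100728, minus strand, exon 27: ttcacagtctcaacttttGAGggctgg
Cacna1e (R type), chr1:154444877-154444903, minus strand, exon 29: ttcacagtctctacagggGAAggatgg
Cacna1g (T type), chr11:94426465-94426491, minus strand, exon 24: tttgtgctggcctccaagGATggctgg
Cacna1h (T type), chr17:25383502-25383528, minus strand, exon 24: ttcgtgctgtcatccaagGATggctgg
Cacna1i (T type), chr15:80376789-80376815, plus strand, exon 24: tttgtcttggcctccaagGATggctgg
The capital codon encodes glutamate in the 5 high-voltage members and aspartate in the 3 T-type members. Read over all 4 domains, 5 members carried glutamate at each of the 4 positions, and 3 members carried aspartate at 2 of them, in domains III and IV. The motif through which high-voltage alpha1 subunits bind a beta subunit was found once in each of those 5 members and in 0 of the 3 T-type members. Identical stretches were few, since of the 28 pairs of members, 6 shared any window of 31 identical bases in their longest transcripts, and the most for a pair was 53 of 8353 windows (Cacna1g and Cacna1i).

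Reads on genes ranged from 51010687 to 80226984 per library, and the alpha1 genes themselves drew between 57 reads (Cacna1c in control replicate 1) and 29177 reads (Cacna1a). The deleted gene, Erbb4, was at a normalized count of 1640 in control replicate 1, against 3034 to 5377 in the other controls and 1048 to 1711 in mutants, so that 1 control lay within the mutant range. Fold changes and calls of the alpha1 genes that rest on this library are therefore given with and without it. The interneuron label was checked against its markers, and the 13 MGE interneuron markers were all detected, with a summed normalized count of 119485 to 407941 in controls and 58077 to 199581 in mutants. RNA of other cells was also present: per kilobase of transcript, controls averaged 35428 normalized counts of Slc17a7, the vesicular glutamate transporter of excitatory neurons, and 63136 of the myelin gene Mbp, next to 1366 of Gad1 and 3112 of Cacna1a. Many excitatory neurons and glia transcribe alpha1 genes as well, and the part of their RNA in the values below was not tested. In such bulk samples fewer cells of a type and less RNA per cell cannot be told apart.

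Cacna1a led the family in every library. Per kilobase of transcript, it averaged 3112 ± 1005 normalized counts in controls and 3020 ± 266 in mutants (SD, n = 4 each), which was 6.05 times the level of the next gene, Cacna1g, in controls and 6.52 times in mutants, and the ranges of these 2 genes were apart in both genotypes. Below it came the T-type genes Cacna1g (514 ± 189 in controls), Cacna1i (441 ± 240) and Cacna1h (223 ± 96.8), then Cacna1d (110 ± 35.5), Cacna1e (65.3 ± 12.7), Cacna1b (65.2 ± 15.9) and Cacna1c (30.8 ± 18.7), all in normalized counts per kilobase. Neighbours in this order mostly overlapped in controls: only Cacna1a over Cacna1g and Cacna1b over Cacna1c had ranges apart, while Cacna1e and Cacna1b differed by a ratio of 1.00. In mutants the order of the 8 means was kept, and the ranges were apart for Cacna1a over Cacna1g, Cacna1h over Cacna1d and Cacna1e over Cacna1b. Because reads were counted on constitutive regions, the transcript length only approximates the length counted. Per kilobase of coding sequence Cacna1a was again first in both genotypes, 5.31 times the next gene in controls, but Cacna1i then came before Cacna1g, and in mutants Cacna1e before Cacna1d.

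**Figure D1:**
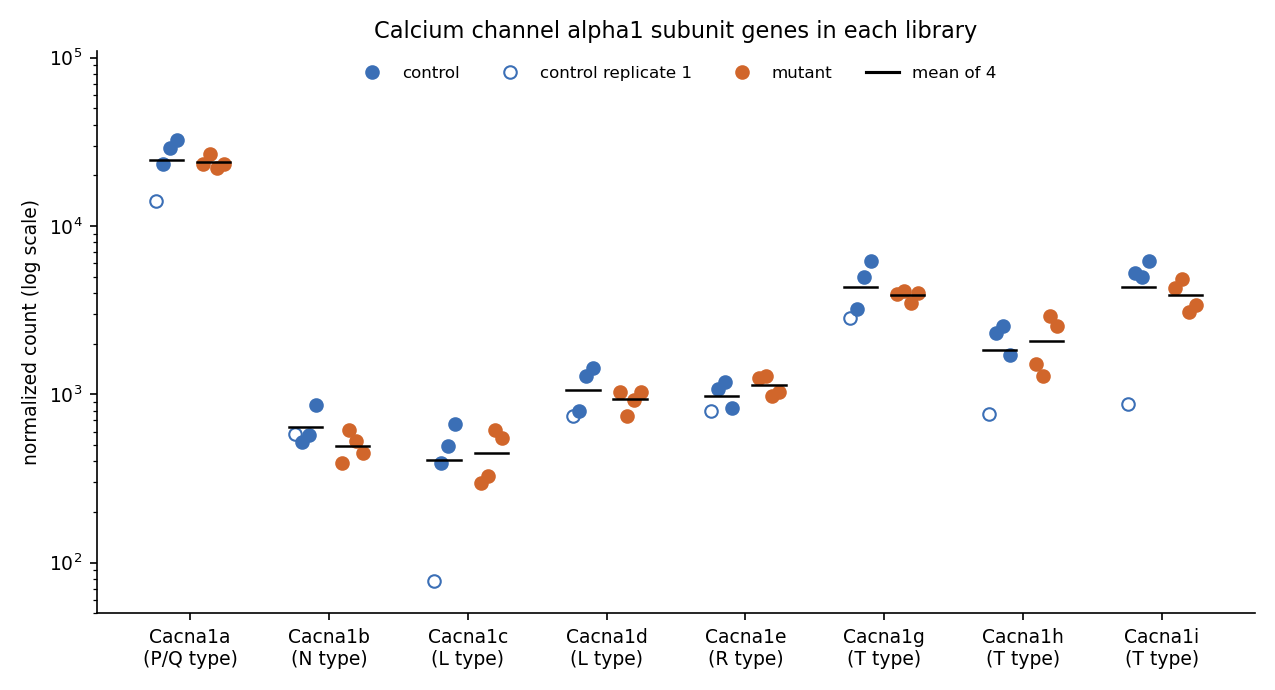
Normalized counts (log axis) of the 8 alpha1 genes in each of the 4 control (blue) and 4 mutant (orange) libraries, with black lines at the means and an open circle for control replicate 1. The genotypes overlap for all 8 genes, and control replicate 1 is the lowest library for Cacna1a, Cacna1c, Cacna1e, Cacna1g, Cacna1h and Cacna1i.

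The question of the comparison was which ribosome-associated transcripts at interneuron synapses differ when Erbb4 is deleted. Log2(normalized count + 1) was fitted with limma over 31171 genes. A gene was called where its fold change reached 1.5 and its unadjusted p did not exceed 0.05. The study set the same limits on DESeq2 results after another expression filter, so the shares called here are not its own. It reported that most of its differential genes were downregulated, while here 988 were called lower and 1241 higher. None of the 8 alpha1 genes met these limits (0 of 8), where 7.15% of all genes tested did, and 0 of 8 had an unadjusted p under 0.05. The count tests of edgeR and DESeq2 on the recovered reads also called 0 of 8. For 0 of 8 genes were the libraries of the genotypes free of overlap, where 4.93% of all genes tested were. The log2 fold changes ran from -0.35 (Cacna1b) to 0.43 (Cacna1c), 3 of 8 were below 0, and their median was 0.09, beside 46.6% below 0 and a median of 0.06 over all genes tested. Adjusted p-values (limma, Benjamini-Hochberg) ran from 0.65 to 0.98, and exact permutation tests of the ranks gave two-sided p-values from 0.34 to 1, where 0.029 is the smallest that 4 libraries against 4 allow.

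Cacna1a, the P/Q-type pore (chr8:84388440-84640249), had normalized counts of 14039, 23451, 28898 and 32280 in control replicates 1, 3, 4 and 5. Its counts in mutant replicates 2, 3, 4 and 5 were 23478, 26935, 21987 and 23335. The mutants were tightly grouped and lay inside the wide control range, with control replicate 1 lowest of all and control replicates 4 and 5 above every mutant. The log2 fold change was 0.02 (standard error 0.27, limma adjusted p = 0.98), and the 95% interval of the fold ran from 0.675 to 1.52. As a share of the summed alpha1 level per kilobase, Cacna1a made up 71.2, 67.3, 68.0 and 67.9% in the controls and 68.8, 71.0, 67.3 and 67.8% in the mutants. The mean share was 68.6 ± 1.76% against 68.7 ± 1.65% (SD, n = 4 each), a difference smaller than the spread between libraries of 1 genotype. The Cacna1a count itself had a coefficient of variation of 32.3% in controls and 8.82% in mutants.

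**Figure D2:**
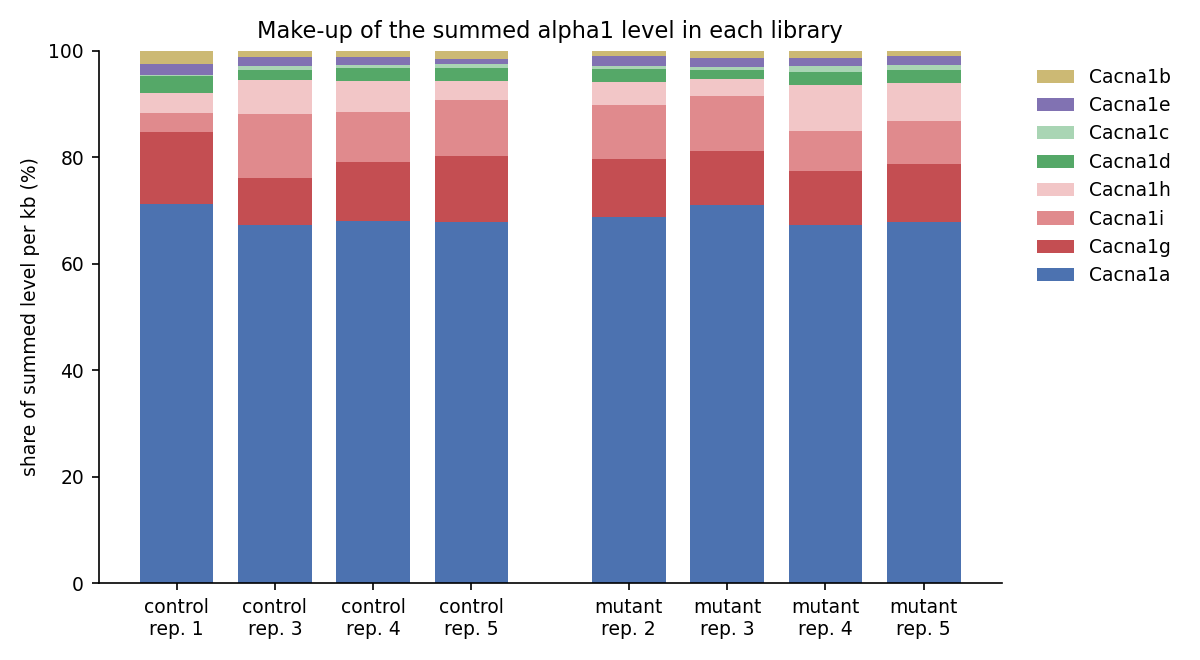
Share (%) of each alpha1 gene in the summed level per kilobase of transcript, in each control and mutant library. Cacna1a takes 67.3 to 71.2% in all 8 libraries, and control replicate 1 has the smallest share of Cacna1i, 3.60%.

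Cacna1b, the N-type pore (chr2:24603909-24763158), was the member with the lowest fold change. Its normalized counts were 582, 522, 573 and 863 in control replicates 1, 3, 4 and 5, and 391, 610, 530 and 448 in mutant replicates 2, 3, 4 and 5. Mutant replicates 2 and 5 were below every control and control replicate 5 stood above the rest, but mutant replicates 3 and 4 lay among the controls. The log2 fold change was -0.35 (standard error 0.26, limma adjusted p = 0.65), with a 95% interval of the fold from 0.524 to 1.17. Its share of the summed level per kilobase was 1.55 ± 0.591% in controls and 1.16 ± 0.191% in mutants.

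Among the T-type genes Cacna1g (chr11:94408371-94474198), known for thalamic and cortical burst firing, had normalized counts of 2836, 3206, 4968 and 6233 in control replicates 1, 3, 4 and 5. The mutant replicates 2, 3, 4 and 5 had 3918, 4099, 3503 and 4004. All 4 mutants lay in the gap of the controls, above control replicates 1 and 3 and below control replicates 4 and 5. The log2 fold change was -0.08 (standard error 0.25, limma adjusted p = 0.93), and the 95% interval of the fold was 0.642 to 1.39.

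Cacna1h (chr17:25374288-25433784), the T-type gene also expressed in sensory neurons, had 758, 2317, 2540 and 1710 normalized counts in the controls and 1510, 1275, 2931 and 2556 in the mutants, in the same order of replicates. Mutant replicates 4 and 5 were above every control, and mutant replicates 2 and 3 were below every control but replicate 1. Its log2 fold change was 0.23 (standard error 0.40, limma adjusted p = 0.85), with a 95% interval of the fold from 0.637 to 2.16.

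Cacna1i (chr15:80287238-80398292), the T-type gene with the slowest gating, had 875, 5229, 4945 and 6193 normalized counts in the controls and 4265, 4824, 3072 and 3389 in the mutants. Control replicate 1 held 16.0% of the mean of the other 3 controls, and those 3 controls were above all 4 mutants. With all libraries the log2 fold change was 0.15 (standard error 0.53, limma adjusted p = 0.93), and the 95% interval of the fold, 0.497 to 2.49, was wide. Summed, the T-type genes took 25.2 ± 2.91% of the alpha1 level per kilobase in controls and 25.4 ± 1.19% in mutants, with 20.9% in control replicate 1 and 23.8 to 27.3% in the other 7 libraries.

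Cacna1h and Cacna1i moved in opposite order within each genotype once control replicate 1 was set aside. From lowest to highest Cacna1h, the other controls were replicates 5, 3 and 4 and the mutants replicates 3, 2, 5 and 4, and in both series Cacna1i stepped down each time. The ratio of Cacna1i to Cacna1h, in normalized counts, was 2.26, 1.95 and 3.62 in control replicates 3, 4 and 5 and 2.83, 3.78, 1.05 and 1.33 in mutant replicates 2, 3, 4 and 5. Over these 7 libraries the correlation of their log2 values, as deviations from the genotype means, was -0.996, the strongest of the 28 pairs of members, and with control replicate 1 it was 0.59 over 8 libraries. This pair was singled out after its values were seen, and the correlation is a description of these libraries.

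**Figure D3:**
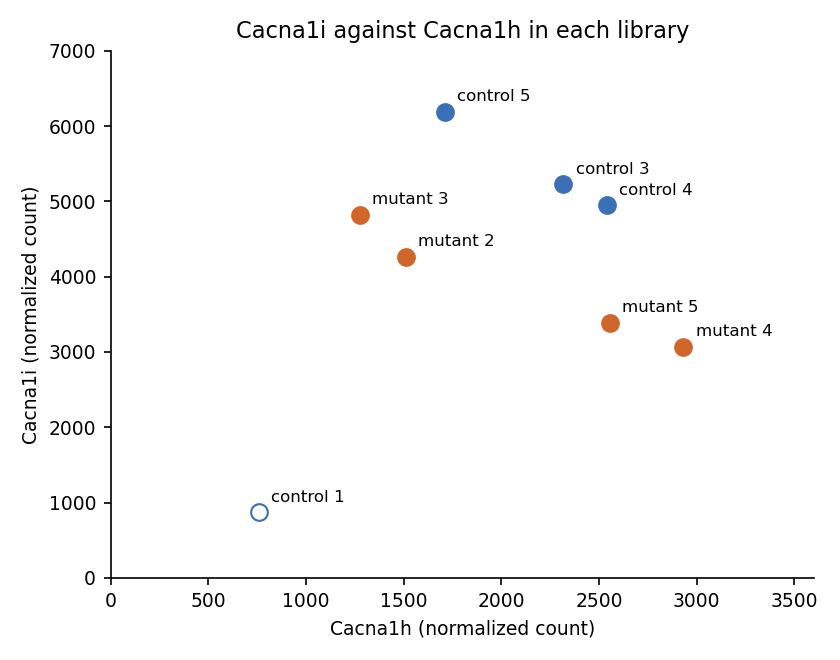
Normalized counts of Cacna1i (vertical) against Cacna1h (horizontal), 1 point for each control (blue) and mutant (orange) library, with control replicate 1 as an open circle. Within the other 3 controls and within the 4 mutants, libraries with more Cacna1h had less Cacna1i, while control replicate 1 was low for both genes.

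The L-type genes were among the lower members. Cacna1c (chr6:118587240-119196410), the main L-type pore of cortex and heart, had normalized counts of 77.7, 389, 492 and 662 in control replicates 1, 3, 4 and 5 and of 296, 328, 616 and 547 in mutant replicates 2, 3, 4 and 5. Control replicate 1 held 15.1% of the mean of the other controls, and the remaining 7 libraries were mixed. The log2 fold change of 0.43 (standard error 0.60, limma adjusted p = 0.81) was the highest of the 8 and had the widest interval of the fold, 0.541 to 3.35. Cacna1d (chr14:30039946-30491457), the L-type pore that opens at lower voltage, had 746, 792, 1281 and 1426 in the controls and 1036, 744, 924 and 1033 in the mutants. As for Cacna1g, control replicates 4 and 5 were above every mutant and the other controls were low. Its log2 fold change was -0.14 (standard error 0.27, limma adjusted p = 0.87). Together the L-type genes made up 3.09 ± 0.373% of the summed level per kilobase in controls and 3.01 ± 0.617% in mutants.

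Cacna1e, the R-type pore (chr1:154392513-154884501), had 800, 1077, 1189 and 829 normalized counts in control replicates 1, 3, 4 and 5 and 1248, 1292, 970 and 1026 in mutant replicates 2, 3, 4 and 5. Mutant replicates 2 and 3 were above every control and the other mutants lay among them. The log2 fold change was 0.23 (standard error 0.22, limma adjusted p = 0.72), with the narrowest interval of the log2 fold change among the members, -0.26 to 0.72. Cacna1e took 1.55 ± 0.506% of the summed level per kilobase in controls and 1.73 ± 0.180% in mutants.

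Several of these fold changes moved with control replicate 1. Without this library the log2 fold change was below 0 for 7 of 8 alpha1 genes, Cacna1e being the exception at 0.14, beside 50.5% of all genes tested. The median over the members was then -0.25 and the median over all genes -0.01. Again 0 of 8 were called, where 4.85% of all genes were. For 1 of 8, Cacna1i, the genotypes no longer overlapped, with 4945 to 6193 normalized counts in 3 controls and 3072 to 4824 in 4 mutants, where 7.44% of all genes did not overlap. Its log2 fold change was -0.51 (95% interval -0.97 to -0.04), a fold of 0.705 that is short of the 1.5-fold threshold, with an unadjusted limma p of 0.035, where 5.9% of all genes were under 0.05, and an adjusted p of 0.77, and its adjusted p ranged from 0.26 to 0.98 over all alternatives tried. Cacna1a moved to -0.23, Cacna1c to -0.24 and Cacna1h to -0.15, none past the p threshold. The MGE interneuron markers, whose part in these values was not tested, had a median log2 fold change of -0.79 with all libraries (13 of 13 below 0, 2 of 13 called lower) and -0.85 without control replicate 1 (13 of 13 below 0, 1 of 13 called lower). Gad1 and Gad2 were the markers called with all libraries, and Elfn1 was the marker called without control replicate 1. Over all genes tested with all libraries, 46.6% were below 0 and 3.17% were called lower. Without control replicate 1, 643 of 31217 genes were called lower.

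**Figure D4:**
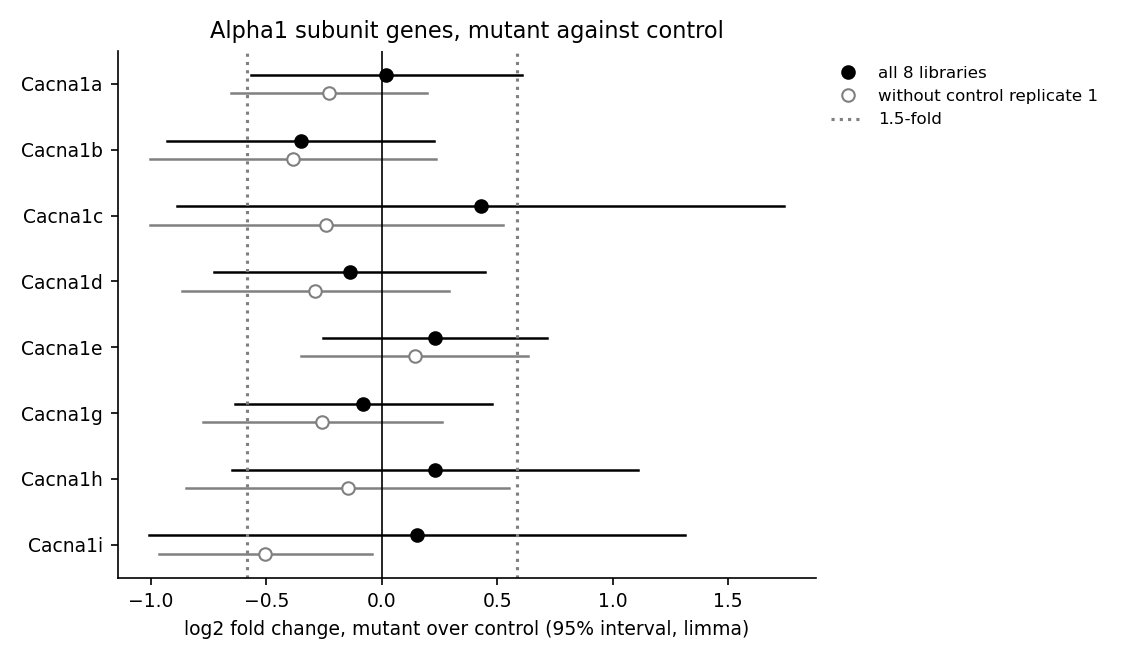
Log2 fold change of each alpha1 gene, mutant over control, with its 95% interval from limma, for all 8 libraries (filled) and without control replicate 1 (open); dotted lines mark 1.5-fold. All filled intervals span 0, and of the open ones that of Cacna1i, -0.97 to -0.04, does not.

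The controls were the more variable genotype for these genes. The coefficient of variation of the normalized count was larger in controls than in mutants for 8 of 8 members, from 19.5% (Cacna1e) to 60.6% (Cacna1c) in controls and from 6.76% (Cacna1g) to 38.7% (Cacna1h) in mutants. Of all genes tested 64.5% were more variable in controls. Without control replicate 1 this held for 5 of 8 members and for 53.6% of all genes. The values of the members also moved together from library to library: as deviations from the genotype means, 25 of the 28 pairs correlated above 0, up to 0.947 for Cacna1a with Cacna1i. Without control replicate 1, 16 of the 28 pairs did, and the highest was Cacna1a with Cacna1g at 0.919, the P/Q-type gene with the T-type gene. All pairs share the same libraries and size factors, so these correlations are given as descriptions with no test.

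The auxiliary subunits assemble with the pore or modify it. Of 15 auxiliary genes tested, 14 had a log2 fold change below 0, beside 46.6% of all genes tested. Called were 2 of 15, both lower, beside 3.17% of all genes tested that were called lower. Without control replicate 1, 1 of 15 was called, Cacna2d2 (lower), beside 643 of 31217 genes called lower. The beta subunits, cytoplasmic partners that bring high-voltage pores to the membrane, had 0 of 4 called. Over all libraries Cacnb3 had the highest mean, with 5503 ± 1197 normalized counts in controls and 4484 ± 205 in mutants (SD, n = 4 each), although Cacnb4 was above it in mutants at 4634 ± 592, and Cacnb2 had the lowest unadjusted p, 0.15, at a log2 fold change of 0.53 (limma adjusted p = 0.61). The median of the beta list was -0.16.

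All 4 alpha2delta genes had log2 fold changes below 0, beside 46.6% of all genes tested, with a median of -0.70. Their products raise the surface density of channels and include the gabapentin targets. Cacna2d2, the gene mutated in the epileptic ducky mouse, was called lower. Its normalized counts were 2883, 6095, 5626 and 3310 in control replicates 1, 3, 4 and 5 and 3912, 3070, 1519 and 1611 in mutant replicates 2, 3, 4 and 5. Mutant replicates 4 and 5 were below every control and the other 2 mutants overlapped with control replicates 1 and 5. The log2 fold change was -0.87 (standard error 0.36, limma adjusted p = 0.58), and the call was lost without control replicate 3 (-0.70), control replicate 4 (-0.73), mutant replicate 4 (-0.66) or mutant replicate 5 (-0.69), and also with edgeR (-0.80). The most abundant of the list, Cacna2d3, was at 22227 ± 7629 in controls and 14996 ± 3971 in mutants and was not called (log2 fold change -0.53, limma adjusted p = 0.58).

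The gamma subunits are named after a muscle channel subunit, but the brain members such as Cacng2 (stargazin) are best known as auxiliary subunits of AMPA receptors. All 7 gamma genes tested were below 0, beside 46.6% of all genes tested. Their median was -0.57, and Cacng1 did not pass the filter on low values. Cacng2 was called lower, with 6687, 5231, 2517 and 2532 normalized counts in the controls and 1943, 2738, 1816 and 1936 in the mutants. Control replicates 1 and 3 were far above the rest, and mutant replicate 3 exceeded control replicates 4 and 5. Its log2 fold change was -0.89 (standard error 0.33, limma adjusted p = 0.58) and was no longer called without control replicate 1 (-0.63) or control replicate 3 (-0.75). Cacng3, the most abundant gamma gene, was not called (log2 fold change -0.57, limma adjusted p = 0.58).

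The other 2 alpha1 genes, Cacna1s of skeletal muscle and Cacna1f of the retina, were low. Cacna1s had normalized counts of 46.4, 6.16, 7.01 and 168 in the controls and 85.5, 151, 122 and 88.3 in the mutants, with control replicate 5 the highest of all. Neither gene was called with all libraries, but Cacna1s was called higher without control replicate 1 (log2 fold change 2.36) or control replicate 5 (2.98). For 15 presynaptic partners, active-zone and SNARE proteins that hold or sense calcium channels, the median was -0.06, and 0 were called higher. Called lower were 2 of 15, beside 3.17% of all genes tested. These were Snap25, a SNARE that binds P/Q- and N-type pores, with a log2 fold change of -0.77, and Syt2, the fast calcium sensor of PV+ basket cell terminals and also on the list of PV markers, with -1.10 (limma adjusted p = 0.58 for both). Without control replicate 1 the Syt2 call remained (-1.21) and that of Snap25 was lost (-0.59), so that 1 of 15 was called. Over all genes 643 of 31217 were then called lower. Leaving out control replicate 3, mutant replicate 4 or mutant replicate 5 ended both calls, leaving out control replicate 4 ended that of Syt2, and leaving out mutant replicate 3 ended that of Snap25 (-0.76). Syt1, the most abundant partner, was at 73940 ± 29266 in controls and 50348 ± 18723 in mutants and was not called.

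Of 16 channel regulators, 1 was called lower and 1 higher, and the median was -0.25. Over all genes tested 3.17% were called lower and 3.98% higher. Stac2, an adaptor that reduces the calcium-dependent inactivation of L-type channels, had 1601, 1026, 961 and 638 normalized counts in the controls and 708, 413, 484 and 594 in the mutants, and only mutant replicate 2 overlapped with the controls, exceeding control replicate 5. Its log2 fold change was -0.89 (limma adjusted p = 0.58), and it was called whichever library was left out (-1.11 to -0.67). Cachd1, an alpha2delta-like protein that enhances T-type currents, went the other way, with 1265, 2471, 2693 and 3299 in the controls and 3268, 3085, 4545 and 4850 in the mutants and a log2 fold change of 0.75 (limma adjusted p = 0.58). Control replicate 5 was the only control within the mutant range of Cachd1. The Cachd1 call was lost without control replicate 1 (0.46), mutant replicate 4 (0.67) or mutant replicate 5 (0.64), and 0 of 16 regulators were then called higher without control replicate 1.

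All 6 calcium-activated potassium channel genes, which read out calcium entry as a hyperpolarizing current, were below 0, beside 46.6% of all genes tested. Their median was -0.47, and 2 of 6 were called lower, beside 3.17% of all genes tested. Kcnmb4, the neuronal beta subunit of BK channels, had 4533, 3731, 2870 and 3394 normalized counts in the controls and 2553, 2220, 2334 and 2298 in the mutants. Every mutant was below every control, as for 2.17% of all genes tested. Its log2 fold change was -0.61 (standard error 0.19, limma adjusted p = 0.58). Kcnn1, an SK channel gene, had 1520, 1177, 1273 and 1437 in the controls and 655, 1189, 844 and 858 in the mutants, with mutant replicate 3 just above control replicate 3, and a log2 fold change of -0.63 (limma adjusted p = 0.58). Without control replicate 1, 0 of 6 were called. Kcnmb4 was then at -0.50 (fold 0.709) and Kcnn1 at -0.58 (fold 0.671). Both had an unadjusted limma p under 0.05, as 5.9% of all genes did, and fell short of 1.5-fold. Leaving out mutant replicate 3 also ended the call of Kcnmb4 (-0.58), and leaving out mutant replicate 2 that of Kcnn1 (-0.50). The BK pore gene Kcnma1, the most abundant of the list, was at -0.16 and was not called. Among 11 genes of calcium release and store-operated entry 0 were called, with a median of -0.03. The inositol trisphosphate receptor gene Itpr1 was the most abundant (27861 ± 8788 in controls, 31447 ± 8912 in mutants), and Orai1, the store-operated pore, had the lowest unadjusted p, 0.12, at a log2 fold change of -0.49 (limma adjusted p = 0.59).

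**Figure D5:**
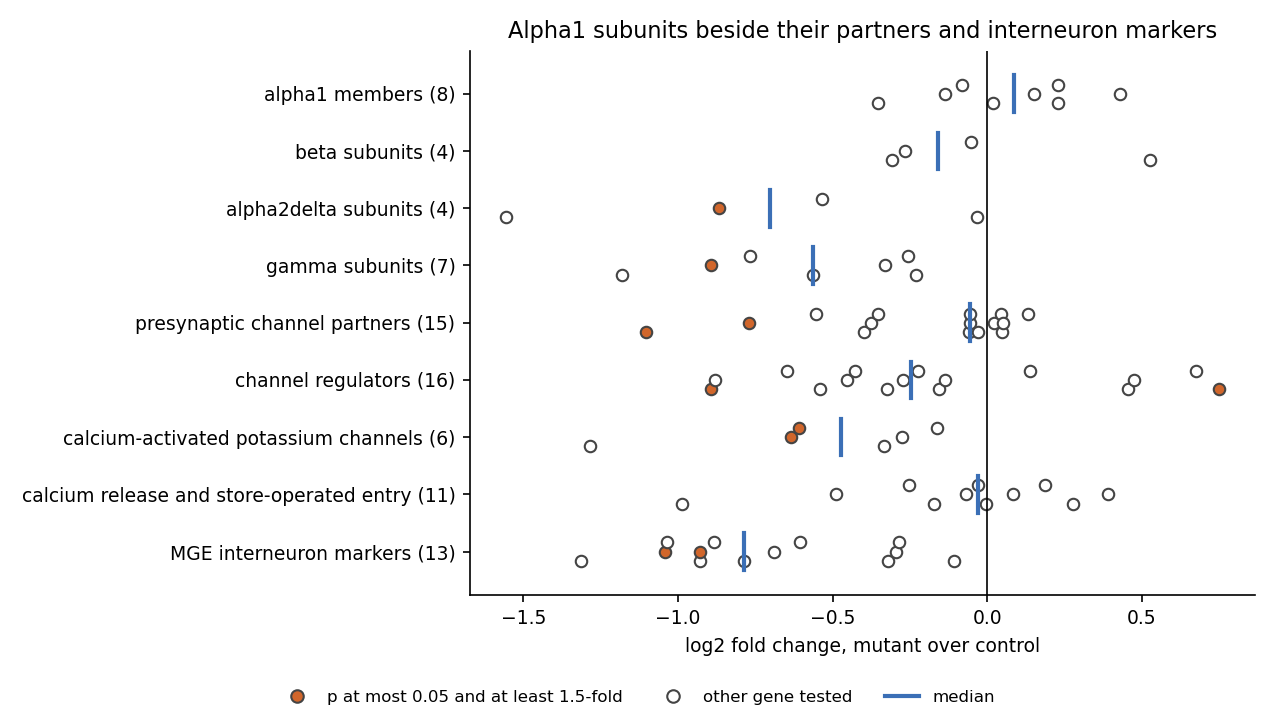
Log2 fold change, mutant over control, of the alpha1 genes, of 7 lists of partner and pathway genes and of the MGE interneuron markers, 1 circle per gene tested, with filled circles for genes called and blue bars at the list medians. The alpha1 genes lie between -0.35 and 0.43 with none filled, and the median of the MGE markers is -0.79.

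Marker lists gave the cell type makeup beside which these values stand, and their part in them was not tested. Over all genes tested 46.6% were below 0, 3.17% were called lower and 3.98% higher. PV markers had 8 of 8 log2 fold changes below 0, 5 of 8 called lower and a median of -1.33. The list holds Erbb4, the deleted gene, which is 1 of these 5. SST markers had 7 of 8 below 0, 1 of 8 called lower and a median of -1.10. The lists of other cells had medians of -0.15 (excitatory neurons, 1 of 10 called lower and 1 of 10 higher), -0.17 (astrocytes, 0 of 10 called), -0.62 (oligodendrocytes, 3 of 10 lower), -0.44 (microglia, 1 of 10 lower) and 0.46 (endothelial and mural cells, 2 of 10 higher). Summed excitatory markers were at 116096 to 153995 in controls and 111540 to 138169 in mutants, while summed oligodendrocyte markers were at 226833 to 663370 in controls, with control replicate 1 the highest, and 197167 to 283147 in mutants. Control replicate 1, the lowest library for 6 of the 8 alpha1 genes, had the highest summed counts of oligodendrocyte, astrocyte and microglia markers. In that library Mbp made up 535543 of the oligodendrocyte sum of 663370, and Aldoc 131127 of the astrocyte sum of 247729. Single markers of these lists did not all follow, and Myrf (308) and Sox9 (3078) were lowest there. Without control replicate 1, 643 of the 31217 genes tested were called lower and 871 higher. The medians were then -1.24 for PV markers (4 of 8 called lower), -0.96 for SST markers (2 of 8 lower), -0.17 for excitatory neurons (1 of 10 lower, 1 of 10 higher) and -0.02 for astrocytes (0 of 10). They were -0.34 for oligodendrocytes, -0.23 for microglia and 0.32 for endothelial and mural cells, with 0 of 10 called in each of these lists.

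The genes whose values ran most alike with each member were looked up over the 8 libraries among 13761 genes averaging 100 or more normalized counts, by the Pearson correlation of log2 values as deviations from the genotype means. For Cacna1a they were Arhgef19 (0.997), Dock3 (0.993) and Pip5k1b (0.991). For Cacna1g they were Adgrb2 (0.984), Bsn (0.983) and Nexmif (0.981), and Bsn, bassoon, is an active-zone scaffold from the list of presynaptic partners. For Cacna1i they were Lemd1 (0.994), Ppp2r2cos (0.991) and Clasp2 (0.990), and for Cacna1h Prickle1 (0.992), Ptprm (0.992) and Mfn2 (0.989). Cacna1b had the loosest matches, Nfil3 (0.960), Cubn (0.953) and Bean1 (0.935). Those of Cacna1e were Cntn3 (0.972), Dlgap1 (0.971) and the sodium leak channel gene Nalcn (0.962), those of Cacna1d Cand2 (0.987), Myo18b (0.983) and Pacs2 (0.981), and those of Cacna1c Extl3 (0.997), Nrip1 (0.992) and Spred2 (0.992). With 8 libraries and this many genes, values this high describe the shared libraries and carry no test. The matches were not looked up without control replicate 1, the lowest library for Cacna1a, Cacna1c, Cacna1e, Cacna1g, Cacna1h and Cacna1i. Among the 28 pairs of members, 25 correlated above 0 with that library and 16 without it.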

How the data were processed

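Libraries were grouped by the genotype in their labels, and all 8 columns were matched to a sample by name. Per the labels and the study's methods, the authors aligned paired reads with STAR 2.4.0 to mm10, and counted them on constitutive regions of Fast DB genes. The values deposited are these counts after scaling each library by its DESeq2 size factor, a signal per gene and library. Dividing by the value of 1 read gave whole reads for 100% of the values, within 0.001 times the read number (at least 0.001), a limit that large values meet by construction. In control replicate 4 and mutant replicate 5 a read was worth 1.0009 and 0.9923, so close to 1 that the recovery is less certain there, which bears on the edgeR and DESeq2 fits. The test was limma 3.58.1 with a trend (R 4.3.3), applied to log2(normalized count + 1) of genes that averaged 10 or more in either genotype, with Benjamini-Hochberg adjustment over all of them. On this scale the change of low genes is understated. The fit was tested on simulated counts. Alternatives were pseudocounts, filters, TMM scaling, variance models, edgeR 4.0.16 and DESeq2 1.42.0 on the recovered reads, the replicate number as a block, and leaving out each library. Leaving out libraries for the called partner genes and Cacna1s was added after the data were seen. Transcript and coding lengths were each the longest among a gene's transcripts in GENCODE release M21, so they could come from different transcripts. Pore stretches and the beta-binding motif came from the transcript with the longest coding sequence, and shared windows from the longest transcript.

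The members, gene lists and thresholds were chosen with earlier results of these data known. The genes named are the members, Erbb4, the called genes of each list, its most abundant gene, its gene of lowest p where none was called, and the 3 genes most alike to each member. Of these, 1 gene is not reported here. The study describes batches of sequencing, no label assigns libraries to them, and within-batch values could not be given. The libraries are the study's biological replicates.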

Additional observations from a re-analysis of the deposited data

Results flagged for a closer look

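Of 84 groups of 4 libraries examined for a value standing apart from the other 3, 3 had one, where chance gives about 1 in 20, or 4.2. The shares of the P/Q, N and R types, each of 1 gene, were counted both as gene and as type. Shares within a library also depend on each other, so 84 and 4.2 overstate the number of separate groups. The share of the T-type genes in the summed alpha1 level per kilobase was 20.9% in control replicate 1, below the 26.2 to 27.3% of the other controls. Mutant replicate 3 had a normalized count of 2738 for Cacng2, where the other mutants ran from 1816 to 1943. The same library had 7916 for Cacng3, where they ran from 5887 to 6146.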

How the results depend on the processing

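None of the 8 alpha1 genes was called in any of the 18 alternatives. These gave 144 fits of single members, of which 18 had the opposite sign to the reported value. For Cacna1a the log2 fold change was -0.25 with library weights, -0.027 with edgeR and -0.030 with DESeq2, and -0.23 to 0.17 when each library was left out in turn. For Cacna1i it was -0.44 with weights, -0.13 with edgeR, -0.13 with DESeq2 and -0.51 to 0.44 with a library left out. The range with a library left out also crossed 0 for Cacna1c (-0.24 to 0.78), Cacna1d (-0.29 to 0.023), Cacna1g (-0.26 to 0.12) and Cacna1h (-0.15 to 0.43), but not for Cacna1b (-0.46 to -0.20) or Cacna1e (0.14 to 0.33). Sign changes came from leaving out control replicate 1 (Cacna1a -0.23, Cacna1c -0.24, Cacna1h -0.15, Cacna1i -0.51), control replicate 4 (Cacna1g 0.01), control replicate 5 (Cacna1d 0.023, Cacna1g 0.12) or mutant replicate 3 (Cacna1a -0.04). The auxiliary genes called, 2 as reported, were 0 with limma without trend and 0 to 4 with a library left out (0 without control replicate 3, 4 without control replicate 5). The count over all genes, 2229, was 3630 with library weights and 1194 to 3767 with a library left out (lowest without mutant replicate 4, 1229 without mutant replicate 5, highest without control replicate 5). Erbb4 was called lower in every alternative. By coding length the share in controls was 64.2% for Cacna1a, 1.01% for Cacna1c, 3.07% for Cacna1d and 2.85% for Cacna1e. The causes of these shifts were not tested.

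Libraries of the same replicate number correlated at 0.10 (number 3), 0.098 (number 4) and 0.082 (number 5) in their deviations from the genotype means. No source pairs them, so the numbers were not taken as a pairing in the main fit. Some libraries of other numbers came near these values. Control replicate 5 with mutant replicate 4 was at 0.085, control replicate 4 with mutant replicate 5 at 0.082 and control replicate 3 with mutant replicate 2 at 0.083. These were below numbers 3 and 4 and no lower than number 5. The lowest values, -0.115 to -0.062, joined control replicate 3 to mutants numbered 4 or 5, or controls numbered 4 or 5 to mutants numbered 2 or 3. For control replicate 1 the values were 0.034 (mutant replicate 2), 0.023 (mutant replicate 3), -0.041 (mutant replicate 4) and -0.029 (mutant replicate 5). By sign the libraries thus fell into 2 sets, controls 1 and 3 plus mutants 2 and 3, and numbers 4 and 5 of both genotypes. Control-mutant pairs were above 0 within a set and below 0 between sets. No label assigns libraries to the study's sequencing batches, so the part of a batch in this was not tested. The replicate block, an alternative fit, compared libraries by number. Replicate numbers 1 and 2 each occur in only 1 genotype, so control replicate 1 and mutant replicate 2 do not bear on its genotype estimate. With this block the log2 fold change was -0.22 for Cacna1a, -0.066 for Cacna1c, -0.025 for Cacna1h and -0.56 for Cacna1i (limma adjusted p = 0.26), and 0 of 8 members were called. The same fit called 4 auxiliary genes lower (Cacna2d2, Cacna2d4, Cacng2, Cacng5) and 3164 genes in all.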
